A study of Mus musculus with 6 samples.

Results

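Cytochrome P450 enzymes are haem proteins that insert an oxygen atom into lipids, steroids, vitamins and foreign chemicals, and in the mouse their genes carry the symbol Cyp. The genes described here were those whose symbol has the form Cyp, a family number, and a subfamily letter and member number where present, with at least 10 counts in at least 3 of the 6 libraries. Of the 18422 genes in the deposited table, 69 had such a symbol and 38 met the minimum. All 38 met it in all 6 libraries, so none entered through a single group, and all 38 were tested. By family, 2 were placed with retinoids, 9 with sterols, vitamin D and steroid hormones, 13 with fatty acids and 13 with foreign chemicals, and Cyp20a1 is an orphan with no settled substrate. The grouping follows the enzyme's best known substrates, and many of these enzymes also act on others.

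The RNA came from ear skin of mice at postnatal day 21. In 3 mice called ecko, Vegfr2 (official symbol Kdr), the receptor through which VEGF-A acts on blood vessel cells, had been deleted in endothelial cells, and the other 3 were littermate controls. Both groups received tamoxifen, which induces the deletion in ecko mice. The series gives tamoxifen schedules starting at postnatal day 1 with 60 µg a day or at day 10 with 200 µg a day, and which one these mice had, the Cre line and the further genotype of the controls are not given in the sources used here. Labels give each library its own title and no animal number, so p-values measure the spread between these samples.

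Reactions of this family need electrons, which Por passes to the enzymes of the endoplasmic reticulum and which Fdxr and ferredoxin pass to those of the mitochondria. In skin, Cyp26 enzymes break down retinoic acid, the vitamin A hormone that controls keratinocyte growth, Cyp4f39 makes the very long hydroxy fatty acids of the skin's water barrier, and Cyp51 makes cholesterol. Cyp1a1 and Cyp1b1 are classical targets of the aryl hydrocarbon receptor (Ahr), which senses pollutants and light-derived ligands.

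Each library held 17255416 to 18054696 estimated read counts. The deleted gene Kdr had 58, 37 and 42 counts in ecko and 475, 511 and 595 in control libraries. Reads of 4 Y-linked genes numbered 36 in ecko 3 and 24 in control 3, and 3712 to 4390 in the others, so 1 library of each group was read as female. Skin markers were abundant: 5 basal keratinocyte genes summed to between 9810 and 10300 CPM (counts scaled to the effective library size) in ecko and between 9430 and 10700 CPM in controls. Markers of liver, the organ best known for these enzymes, were near the detection limit, with 5 genes summing to between 1.60 and 1.91 CPM in ecko and between 1.76 and 3.76 CPM in controls.

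Of the 38 genes, Cyp2e1 and Cyp2f2 fell and Cyp1b1 rose in ecko skin (edgeR quasi-likelihood test over 14866 genes, Benjamini-Hochberg adjusted p under 0.05). These 3 of 38 stand against a background of 1.76% of all genes tested that passed, 0.686% higher and 1.08% lower. All 3 belong to the enzymes of foreign chemicals. None of the retinoid, sterol and steroid, fatty acid or orphan genes passed. The median log2 fold change was -0.01 over the 38 genes and 0.00 over all genes tested, with 18 above 0 and 20 below. An unadjusted p under 0.05 was found for 6 of the 38, against 15.4% of all genes. The 6 CPM values did not overlap between groups for 10 of the 38, of which 5 were higher and 5 lower in ecko, against 21.0% of all genes (10.2% higher and 10.8% lower). A size under 0.2 log2 units was fitted for 26 of the 38.

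**Figure D1:**
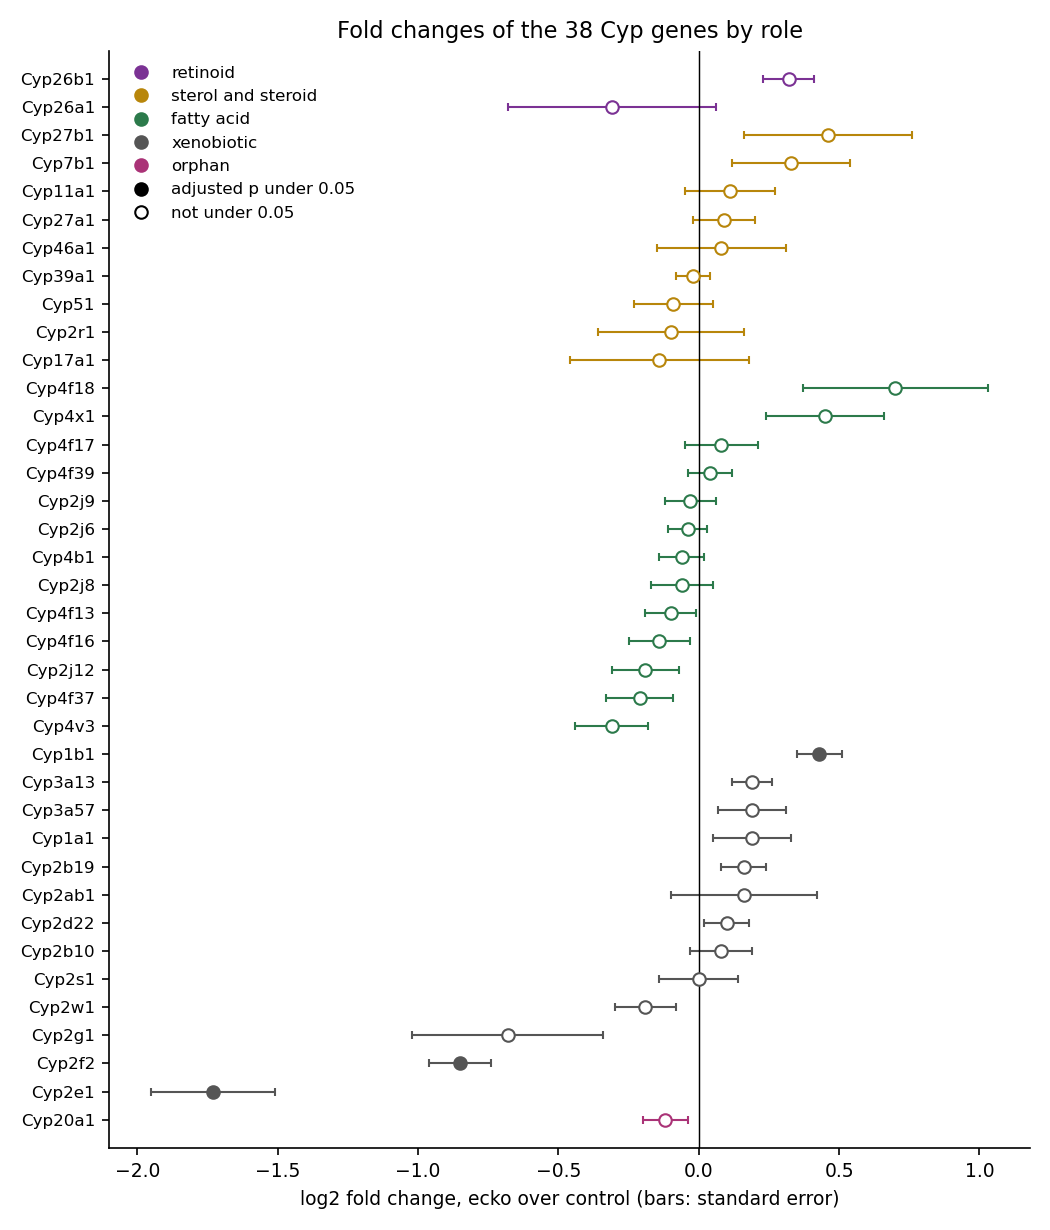
Log2 fold changes of ecko over control skin (x axis) with standard errors for the 38 Cyp genes, ordered by role and size; filled points have an edgeR adjusted p under 0.05. Cyp2e1 (-1.73) and Cyp2f2 (-0.85) lie to the left and Cyp1b1 (0.43) to the right, and the other 35 points are open.

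Cyp2e1, which oxidises ethanol, acetone and other small molecules, had the largest fold change of the 38. The gene (Entrez 13106) lies on chromosome 7 from 140763819 to 140774990 in GRCm38.p6. Its counts were 21, 16 and 21 in ecko and 54, 62 and 75 in control libraries. Every ecko library lay well below every control library, although both levels were low. The level was 1.09 ± 0.180 CPM in ecko and 3.63 ± 0.575 CPM in controls (SD, n = 3 each), a log2 fold change of -1.73 (SE 0.22, edgeR adjusted p = 0.00612). The fitted level was 30.1% of that in controls. It passed in all 15 alternative settings, with adjusted p between 5.27e-05 and 0.0455.

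Cyp2f2, known for activating naphthalene in the club cells of the mouse lung, fell by a smaller factor and was more abundant. The gene (Entrez 13107) lies on chromosome 7 from 27119955 to 27133660. It had 251, 301 and 353 counts in ecko and 554, 526 and 525 in control libraries. The 3 controls were close to one another, and the ecko libraries were spread over a wider range below them. The level was 17 ± 2.61 CPM in ecko and 30.6 ± 1.23 CPM in controls (SD, n = 3 each), with a log2 fold change of -0.85 (SE 0.11, edgeR adjusted p = 0.00713), or 55.6% of the control level. It too passed in all 15 alternative settings, with adjusted p between 2.73e-08 and 0.0494. Cyp2e1 and Cyp2f2 share a chromosome but lie far apart on it.

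Some fat cell and vessel markers were also lower, where 1.08% of all genes tested fell. In whole skin, fewer cells of a type and less RNA per cell cannot be told apart. Of 6 fat cell genes tested, 3 fell (Cfd, Adipoq and Fabp4) and none rose, and the summed level of all 6 was 225 to 296 CPM in ecko and 368 to 449 CPM in controls. The fat cell list was not uniform: Lep, the leptin gene, averaged 16.7 ± 3.53 CPM in ecko and 9.05 ± 5.16 CPM in controls (SD, n = 3 each), a log2 fold change of 0.88 that did not pass (SE 0.32, edgeR adjusted p = 0.231). Of 6 endothelial genes, Kdr included, all 6 fell, and their sum was 162 to 164 CPM in ecko and 284 to 305 CPM in controls. Of 6 lymphatic endothelial genes 3 fell, with sums of 165 to 182 CPM in ecko and 206 to 240 CPM in controls, and of 5 skeletal muscle genes 1 fell, with sums of 3370 to 3860 CPM in ecko and 4060 to 6190 CPM in controls. The part of these cell types in the falls of Cyp2e1 and Cyp2f2 was not tested. Of 5 liver genes, the 2 with enough counts to test overlapped between groups and did not pass. Albumin (Alb) had 18, 8 and 14 counts in ecko and 13, 19 and 20 in control libraries (log2 fold change -0.39, SE 0.35), and transthyretin (Ttr) had 12, 17 and 13 in ecko and 15, 38 and 7 in control libraries (-0.53, SE 0.52). Counts this low limit what can be read from them.

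**Figure D2:**
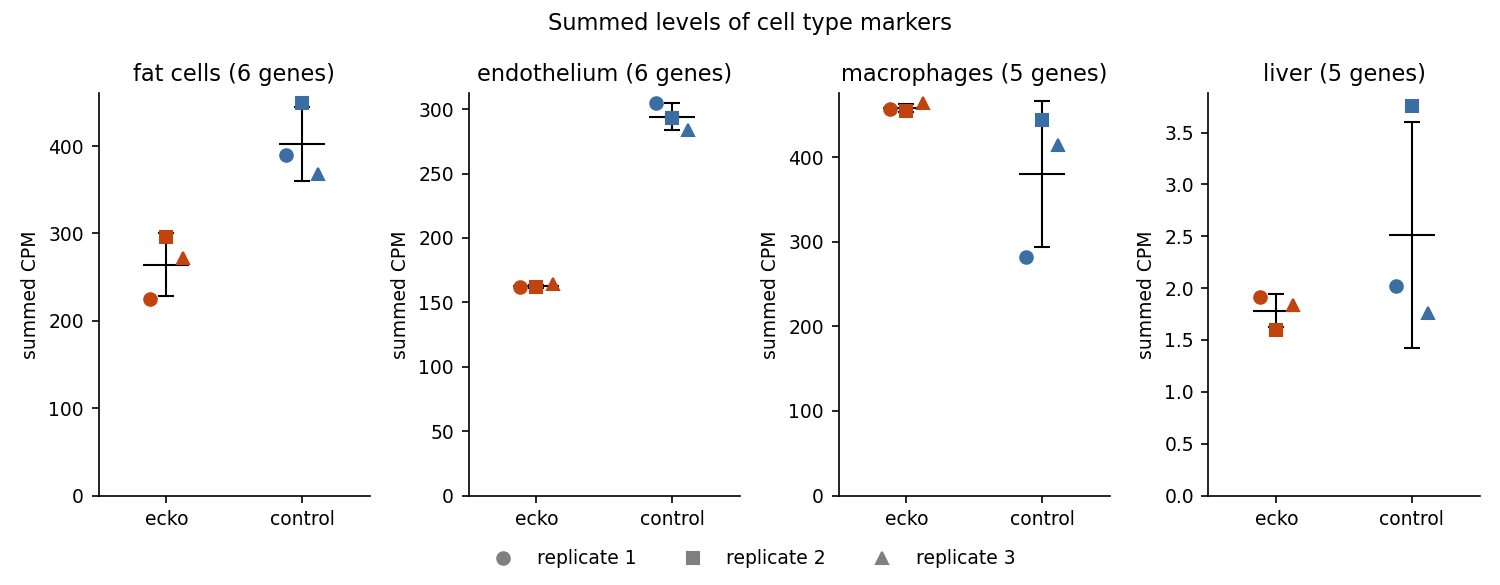
Summed CPM (y axis, from 0) of marker genes of fat cells, endothelium, macrophages and liver in the 3 ecko and 3 control libraries, with mean and SD. The ecko libraries lie below all controls for fat cells (225 to 296 against 368 to 449) and endothelium (162 to 164 against 284 to 305), and the liver sums overlap at no more than 3.76.

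Cyp1b1, which oxidises oestradiol, retinol and polycyclic hydrocarbons, was the gene that rose. The gene (Entrez 13078) lies on chromosome 17 from 79706940 to 79715061. Its counts were 1023, 1076 and 1079 in ecko and 675, 812 and 838 in control libraries. The ecko libraries were nearly equal and all above the highest control. The level was 59.7 ± 0.549 CPM in ecko and 44.2 ± 4.61 CPM in controls (SD, n = 3 each), a log2 fold change of 0.43 (SE 0.08, edgeR adjusted p = 0.0300). The call ended when ecko 1, ecko 2, ecko 3 or control 2 was left out, with the highest edgeR adjusted p, 0.124, without ecko 1 and the lowest, 0.0639, without control 2. The fold change stayed between 0.35 and 0.49 and the adjusted p between 0.000987 and 0.124 over all 15 alternatives. In the 4 male libraries alone it was 0.48 with an edgeR adjusted p of 0.0695. Some epidermal and gland markers were higher as well, where 0.686% of all genes tested rose. Of 6 differentiated keratinocyte genes 1 rose, Krt1 (0.76, SE 0.15, edgeR adjusted p = 0.0376), and 1 lay below 0, Lor (-0.19, SE 0.13). Their sums were 20500 to 23100 CPM in ecko and 17900 to 19800 CPM in controls. Most of each sum was Krt10, which did not pass (0.14, SE 0.11, edgeR adjusted p = 0.644). Of 8 sebaceous gland genes 2 rose, Awat1 (0.39, SE 0.07, edgeR adjusted p = 0.0318) and Dgat2l6 (0.72, SE 0.13, edgeR adjusted p = 0.0286), while the sums overlapped at 1880 to 1980 CPM in ecko and 1510 to 1920 CPM in controls. Awat2 (-0.36, SE 0.22) and Mc5r (-0.07, SE 0.13) of that list lay below 0. Of 5 macrophage genes all 5 lay above 0 and none passed. Their sums were 455 to 464 CPM in ecko and 282 to 444 CPM in controls. None of the 5 basal keratinocyte, 5 fibroblast or 4 cartilage genes tested passed, with median log2 fold changes of 0.04, -0.08 and -0.21. The part of these cell types in the rise of Cyp1b1 was not tested.

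**Figure D3:**
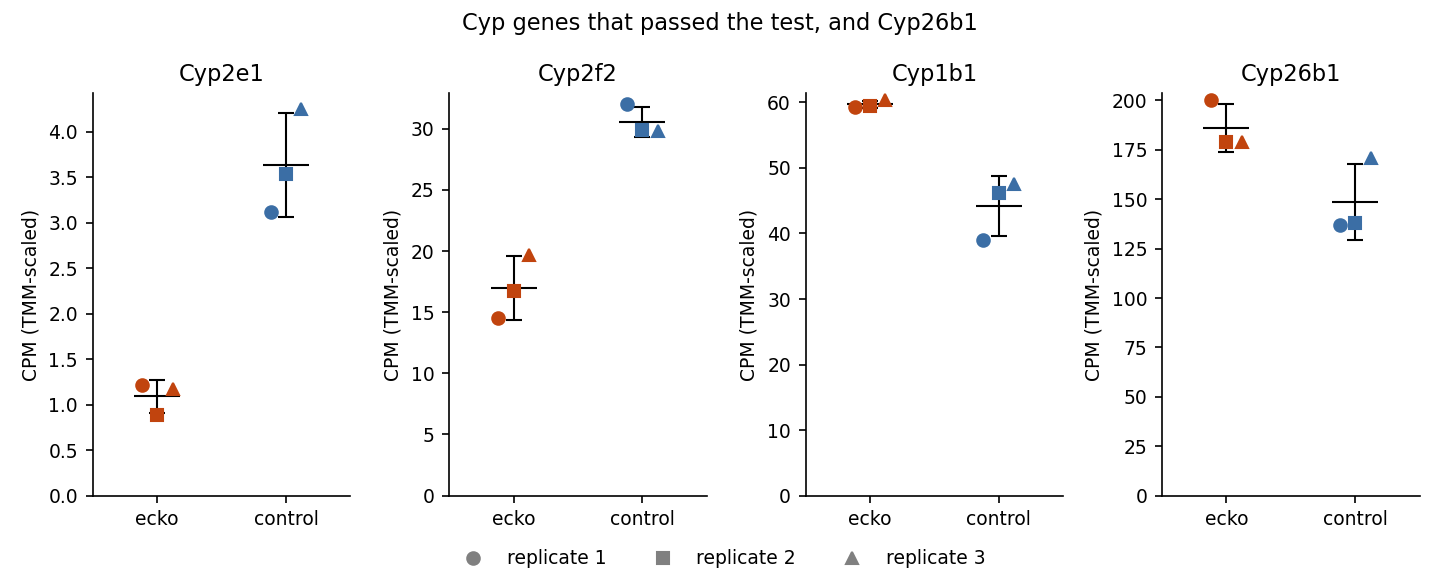
TMM-scaled CPM (y axis, from 0) of Cyp2e1, Cyp2f2, Cyp1b1 and Cyp26b1 in each library, with group mean and SD; symbols mark the replicate number. The ecko and control points do not overlap for any of the 4 genes, and Cyp26b1 did not pass the test (adjusted p = 0.140).

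Cyp1a1, the other classical Ahr target of the family, did not pass. It had 470, 453 and 563 counts in ecko and 517, 363 and 408 in control libraries, and control 1 lay above both ecko 1 and ecko 2. Its log2 fold change was 0.19 (SE 0.14, edgeR adjusted p = 0.582). Of 15 tested genes of foreign chemical sensing and removal, 1 rose and none fell, against 0.686% and 1.08% of all genes tested. That gene was Ugt1a7c, a glucuronosyltransferase gene, at 39.7 ± 4.34 CPM in ecko and 27.3 ± 2.30 CPM in controls (SD, n = 3 each), a log2 fold change of 0.54 (SE 0.09, edgeR adjusted p = 0.0255). Genes of the Ugt1a locus share exons, so its reads are uncertain. For Ahr itself the log2 fold change was 0.32 (SE 0.09, edgeR adjusted p = 0.140). It was 0.20 (SE 0.18) for its repressor gene Ahrr and 0.17 (SE 0.09) for its target Tiparp. Elsewhere in the list, Fmo5 (0.30, SE 0.11) and Fmo2 (0.26, SE 0.11) lay above 0, with overlap. Gstp1 lay below 0 without overlap (-0.20, SE 0.06, edgeR adjusted p = 0.160). Arnt at 0.05 (SE 0.05), Nqo1 at -0.05 (SE 0.10) and Aldh3a1 at 0.02 (SE 0.07) were among those near 0. None of these genes passed. Before adjustment, 5 of the 15 genes reached an edgeR p below 0.05, where 15.4% of all genes tested did.

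The promoters of Cyp2e1 and Cyp2f2, which both fell, and of the 2 Ahr target genes, of which Cyp1b1 rose, are shown for their response elements. Sequences are from RefSeq (GRCm38.p6) and run from 250 bases before to 50 bases after an annotated start, 5′ to 3′ on the gene's strand. The windows are chr7:140763569-140763868 (plus strand) for Cyp2e1, chr7:27119705-27120004 (plus) for Cyp2f2, chr17:79715012-79715311 (minus) for Cyp1b1 and chr9:57697363-57697662 (plus) for Cyp1a1. Capitals mark any match, on either strand, to the TATA box (TATAAA) or the dioxin response element core bound by Ahr (GCGTG). They also mark a hypoxia response element core, searched only as ACGTG, and a nuclear receptor core motif (AGGTCA). The last motif marked was a retinoic acid response element, here AGTTCA repeated after a gap of 5 bases. Overlapping matches are marked together.
Cyp2e1: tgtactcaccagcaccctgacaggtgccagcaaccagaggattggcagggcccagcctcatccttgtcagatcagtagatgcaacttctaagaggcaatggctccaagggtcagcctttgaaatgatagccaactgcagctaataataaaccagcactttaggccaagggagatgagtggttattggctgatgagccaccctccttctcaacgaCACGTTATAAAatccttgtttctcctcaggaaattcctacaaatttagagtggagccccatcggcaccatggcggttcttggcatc
Cyp2f2: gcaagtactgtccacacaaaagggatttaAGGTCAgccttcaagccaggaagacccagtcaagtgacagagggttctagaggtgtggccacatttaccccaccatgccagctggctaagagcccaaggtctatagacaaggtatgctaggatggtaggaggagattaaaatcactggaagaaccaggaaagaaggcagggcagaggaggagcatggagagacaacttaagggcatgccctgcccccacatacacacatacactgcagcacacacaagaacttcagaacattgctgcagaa
Cyp1b1: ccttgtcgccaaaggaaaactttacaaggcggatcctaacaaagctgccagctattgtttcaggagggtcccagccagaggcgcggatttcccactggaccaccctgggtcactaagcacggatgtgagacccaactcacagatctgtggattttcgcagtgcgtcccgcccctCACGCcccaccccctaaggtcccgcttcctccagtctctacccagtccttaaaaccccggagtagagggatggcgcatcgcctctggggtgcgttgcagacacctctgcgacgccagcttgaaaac
Cyp1a1: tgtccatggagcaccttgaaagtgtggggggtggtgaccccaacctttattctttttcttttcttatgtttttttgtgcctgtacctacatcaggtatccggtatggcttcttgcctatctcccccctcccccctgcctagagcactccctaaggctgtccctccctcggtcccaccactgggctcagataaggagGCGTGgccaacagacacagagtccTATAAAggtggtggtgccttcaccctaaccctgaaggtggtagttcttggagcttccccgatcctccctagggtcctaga

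Both Ahr targets held 1 dioxin response element core, at bases -76 to -72 in Cyp1b1 and -54 to -50 in Cyp1a1 relative to the start, and 32.4% of all 32851 promoter windows of this length hold one. Cyp1a1 and Cyp2e1 each had a TATA box, at -30 to -25 and at -31 to -26, as do 13.6% of all windows. In Cyp2e1 the TATA box directly followed a hypoxia response element core (-36 to -32), which 19.6% of windows hold. Cyp2f2 held a nuclear receptor core motif (-221 to -216), found in 16.3% of windows. A match is a description of the letters and not evidence of a bound site. A promoter entry was found for 31 of the 38 genes, with 32 windows in all, and 14 of these hold a dioxin response element core.

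The remaining genes of this group did not pass. Cyp2g1, best known from the olfactory mucosa, had 1177, 1147 and 1335 counts in ecko and 2907, 2059 and 820 in control libraries. Controls 1 and 2 lay above and control 3 below all ecko libraries. The log2 fold change was -0.68 (SE 0.34, edgeR adjusted p = 0.383) and depended on single controls. Without control 1 it was -0.25, and without control 3 it was -1.05 (edgeR adjusted p = 0.00721). In the male libraries alone it was -1.11 (edgeR adjusted p = 0.0294), with a range of adjusted p from 0.00721 to 0.763 over all alternatives. Control 3 was read as female, and ecko 3, also read as female, had the highest ecko value. With 1 female library in each group, sex and the single library cannot be told apart. With a term for sex in the fit, the log2 fold change of Cyp2g1 between groups was -0.55 (edgeR adjusted p = 0.442). The effect of sex itself on Cyp2g1 was not tested. Cyp2b19, a keratinocyte enzyme that makes epoxides of arachidonic acid, was at 3830, 3499 and 4154 counts in ecko and 3571, 3121 and 3447 in control libraries, with overlap (log2 fold change 0.16, SE 0.08, edgeR adjusted p = 0.395). Cyp3a13 lay above all controls in each ecko library, at 31.1 to 33.4 against 26.6 to 29.4 CPM, by 0.19 log2 units (SE 0.07, edgeR adjusted p = 0.256). For Cyp2w1 the log2 fold change was -0.19 (SE 0.11). The other 6, Cyp3a57, Cyp2d22, Cyp2b10, Cyp2ab1, Cyp2s1 and Cyp1a1, lay between 0.00 and 0.19.

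Among the enzymes that break down retinoic acid, Cyp26b1 was much the more abundant and Cyp26a1 the more variable. Cyp26b1 had 3444, 3226 and 3196 counts in ecko and 2365, 2419 and 3018 in control libraries. All ecko libraries lay above all controls, with control 3 close below them. The log2 fold change was 0.32 (SE 0.09, edgeR adjusted p = 0.140). It passed with DESeq2 (adjusted p = 0.0355), without control 3 (0.44, edgeR adjusted p = 0.0148) and in the male libraries alone (0.46, edgeR adjusted p = 0.0444), over a range of 0.0148 to 0.354. Cyp26a1 had 78, 72 and 87 counts in ecko and 39, 94 and 157 in control libraries, so that controls lay on both sides of all ecko values. Its log2 fold change of -0.31 (SE 0.37, edgeR adjusted p = 0.766) became 0.23 without control 3 and 0.16 in the male libraries alone.

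The promoters of both retinoid genes are shown because Cyp26a1 is itself a textbook target of retinoic acid. The windows are chr6:84593761-84594060 (minus strand) for Cyp26b1 and chr19:37697558-37697857 (plus strand) for Cyp26a1, with capitals as above.
Cyp26b1: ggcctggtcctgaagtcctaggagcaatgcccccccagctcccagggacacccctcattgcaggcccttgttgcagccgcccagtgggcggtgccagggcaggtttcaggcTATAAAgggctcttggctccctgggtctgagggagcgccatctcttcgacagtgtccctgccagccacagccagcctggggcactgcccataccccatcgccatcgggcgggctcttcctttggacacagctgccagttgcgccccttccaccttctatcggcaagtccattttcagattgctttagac
Cyp26a1: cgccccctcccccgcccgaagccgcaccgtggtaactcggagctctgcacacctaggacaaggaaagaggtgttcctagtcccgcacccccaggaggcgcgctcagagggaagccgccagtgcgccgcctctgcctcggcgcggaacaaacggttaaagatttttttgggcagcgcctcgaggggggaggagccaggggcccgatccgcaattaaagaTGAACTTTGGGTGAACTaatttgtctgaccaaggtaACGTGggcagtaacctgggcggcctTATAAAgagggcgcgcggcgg

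Cyp26a1 held the spaced repeat, read on the opposite strand at -32 to -16. The letters searched were those of the element known from this promoter, so the match there and its rarity elsewhere (8 of the 32851 windows, 0.0244%) follow from that choice. It also held a hypoxia response element core at 5 to 9 and the TATA letters at 30 to 35, both after the start. Cyp26b1 held only the TATA letters, at -139 to -134. No search was made outside these windows.

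None of the 18 retinoid pathway genes tested passed. Lrat, which stores retinol as esters, was at 48, 42 and 36 counts in ecko and 72, 69 and 67 in control libraries, without overlap (log2 fold change -0.74, SE 0.17, edgeR adjusted p = 0.0779). Aldh1a3, which makes retinoic acid, showed a log2 fold change of 0.65 (SE 0.22, edgeR adjusted p = 0.193). For Dhrs9, a retinol dehydrogenase gene, it was 0.82 (SE 0.26, edgeR adjusted p = 0.169). Crabp1 (-0.47, SE 0.15, edgeR adjusted p = 0.182) and Rbp4 (-0.41, SE 0.15, edgeR adjusted p = 0.234) were lower. Groups did not overlap for 2 higher genes, Aldh1a3 and Dhrs9, and for 4 lower, Lrat, Crabp1, Rbp4 and Rara. Over all genes tested the shares were 10.2% higher and 10.8% lower. The list's median was -0.09, with 8 above 0 and 10 below.

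The 9 sterol and steroid genes had log2 fold changes between -0.14 and 0.46, and none passed. Cyp51, which removes a methyl group from lanosterol on the way to cholesterol, had 2952, 3146 and 3815 counts in ecko and 3901, 2682 and 3800 in control libraries. The groups overlapped throughout (log2 fold change -0.09, SE 0.14, edgeR adjusted p = 0.825). None of the 20 tested genes of sterol synthesis, oxysterols and vitamin D passed either, and Sqle and Lss, which act just before Cyp51, had -0.11 and -0.15. Cyp39a1, an oxysterol hydroxylase gene, varied little, with 510, 530 and 535 counts in ecko and 507, 545 and 522 in control libraries, and a coefficient of variation of 0.995% in ecko and 3.10% in controls. Cyp7b1, another oxysterol hydroxylase gene, had 132, 124 and 95 counts in ecko and 75, 78 and 123 in control libraries, with control 3 inside the ecko range (log2 fold change 0.33, SE 0.21, edgeR adjusted p = 0.506). Cyp27a1, the sterol hydroxylase of mitochondria, had 0.09 (SE 0.11, edgeR adjusted p = 0.773).

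Steroid hormone genes varied widely among controls. Cyp11a1, which cuts the side chain of cholesterol to start steroid synthesis, had 286, 279 and 297 counts in ecko and 201, 246 and 340 in control libraries. Cyp17a1, which leads towards androgens, had 315, 259 and 297 counts in ecko and 497, 293 and 156 in control libraries. Control 3 was the highest control for the first and the lowest for the second, and the ecko values lay between the control extremes for both. Their log2 fold changes were 0.11 (SE 0.16) and -0.14 (SE 0.32). None of the 8 tested genes of the steroid hormone list passed. For vitamin D, Cyp2r1 and Cyp27b1, which activate it, were rare at 17 to 19 and 16 to 17 counts in ecko against 16 to 23 and 10 to 15 in controls. Cyp24a1, which inactivates it, had 0 counts in every library, which allows up to 0.174 CPM from counting error alone.

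**Figure D4:**
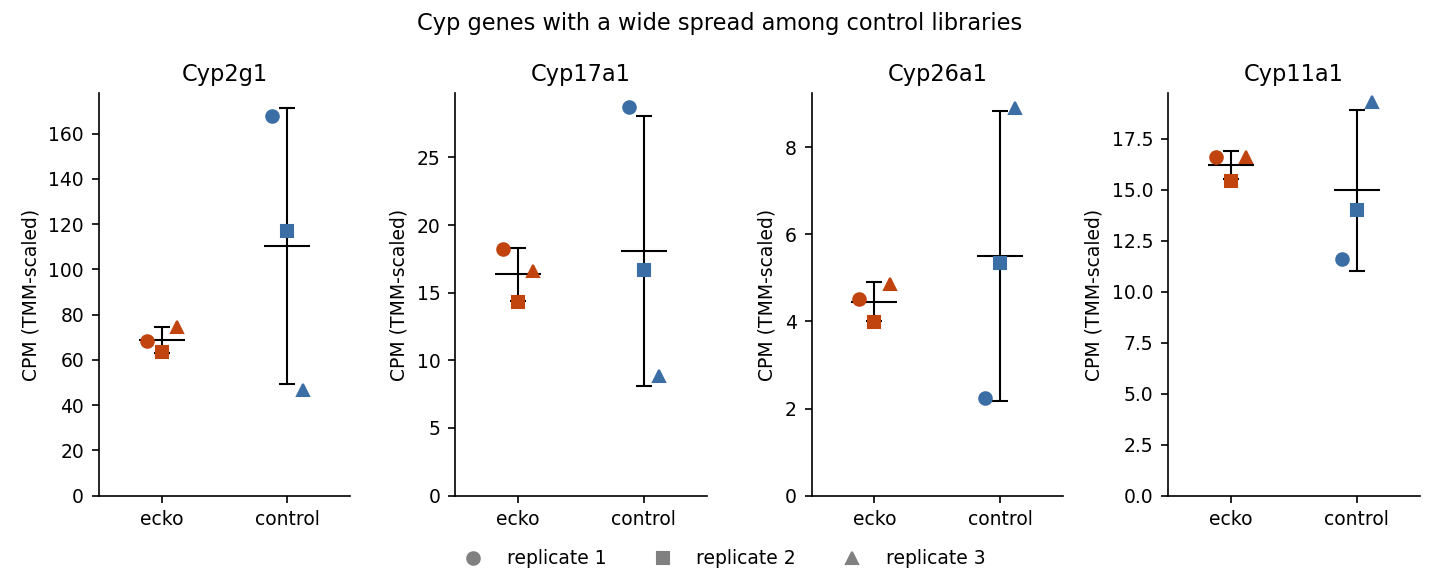
TMM-scaled CPM (y axis, from 0) of Cyp2g1, Cyp17a1, Cyp26a1 and Cyp11a1 in each library, with group mean and SD; symbols mark the replicate number. For each gene the control points lie on both sides of all 3 ecko points; control 3 is lowest for Cyp2g1 and Cyp17a1 and highest for Cyp26a1 and Cyp11a1.

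Over all genes tested, the median coefficient of variation was 6.34% in ecko and 8.07% in controls, and 9.22% of genes in ecko and 12.4% in controls were above 20%. Among the Cyp genes a coefficient of variation above 20% was found for 2 of the 38 in ecko and for 7 in controls, and the median was 7.50% in ecko and 12.4% in controls. The highest in controls were Cyp26a1 (60.5%), Cyp17a1 (55.3%), Cyp2g1 (55.1%) and Cyp4f18 (51.6%), which were at 9.95%, 12.0%, 8.15% and 10.4% in ecko. The difference in spread was not tested.

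Of the 13 fatty acid genes none passed, with 9 log2 fold changes below 0 and a median of -0.06. Cyp4f39, the barrier enzyme, had 1907, 1980 and 1861 counts in ecko and 1870, 1607 and 2050 in control libraries, and the groups overlapped (log2 fold change 0.04, SE 0.08, edgeR adjusted p = 0.881). None of the 16 tested genes of the surrounding fatty acid and ceramide pathway passed, among them Cers3, which builds the ceramides that carry the product of Cyp4f39 (0.28, SE 0.07, edgeR adjusted p = 0.115). Cyp4v3, which hydroxylates fatty acids, was at 10.2, 12.8 and 12.7 CPM in ecko and 13.1, 16.5 and 14.6 CPM in controls, all ecko values lower (-0.31, SE 0.13, edgeR adjusted p = 0.286). Cyp4x1 had 33, 39 and 36 counts in ecko and 29, 26 and 23 in control libraries. All ecko values were higher (0.45, SE 0.21, edgeR adjusted p = 0.344). The span of Cyp4x1 overlaps that of the antisense gene Cyp4x1os, and reads from any shared exon could not be told apart. The epoxygenase gene Cyp2j6 and Cyp4b1 had -0.04 and -0.06.

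Cyp4f18, which inactivates a leukotriene in mouse neutrophils, had the highest log2 fold change of the 38 without passing (0.70, SE 0.33, edgeR adjusted p = 0.346). It had 39, 49 and 41 counts in ecko and 13, 40 and 25 in control libraries, so control 2 lay within the ecko range and control 1 far below. The summed level of 5 macrophage genes was also lowest in control 1, at 282 CPM against 414 to 444 CPM in the other controls and 455 to 464 CPM in ecko. None of these 5 passed, and their part in the Cyp4f18 value was not tested.

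Levels were compared between genes per kilobase of exon. Over all 6 libraries, Cyp2b19 stood first at 49.1 CPM per kilobase, followed by Cyp51 (43.5), Cyp2g1 (41.8), Cyp4f39 (37.3), Cyp2w1 (33.1) and Cyp26b1 (31.2). These neighbours in the order lay within the spread of their libraries. The lowest were Cyp27b1 (0.309), Cyp4x1 (0.420), Cyp2ab1 (0.429) and Cyp2r1 (0.497). The order differed between groups for Cyp2g1, which was at 32.1 in ecko, below Cyp2b19 (51.8), Cyp51 (42.2), Cyp4f39 (37.8) and Cyp26b1 (34.7), and at 51.5 in controls, above Cyp2b19 (46.3) and Cyp51 (44.8). Cyp2f2 stood at rank 10 with 11.7, at 8.38 in ecko and 15.1 in controls. Cyp1b1 was at 10.2 in ecko and 7.57 in controls, and Cyp2e1 at 0.506 and 1.68. The 4 most abundant genes by CPM took 49.9% to 51.1% of the family's summed CPM in ecko and 45.7% to 51.3% in controls, and Cyp2g1 was among these 4 in controls 1 and 2 and in no other library.

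**Figure D5:**
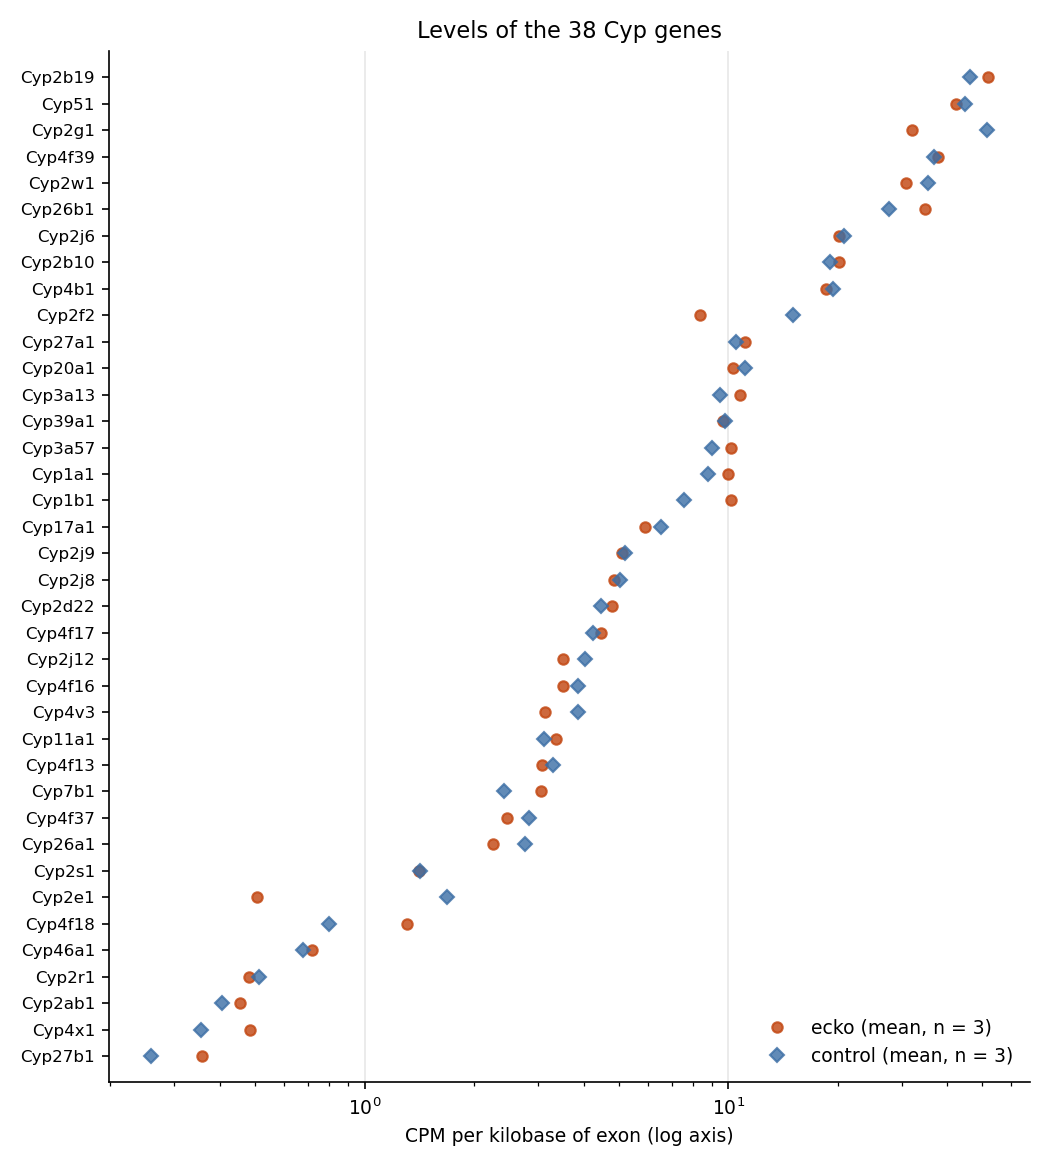
Mean CPM per kilobase of exon (x axis, log scale) in ecko (circles) and control (diamonds) skin for the 38 Cyp genes, ordered by their mean over all libraries. Means over all libraries run from 0.309 for Cyp27b1 to 49.1 for Cyp2b19, and the circle stands clearly left of the diamond for Cyp2e1, Cyp2f2 and Cyp2g1.

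Many of these genes lie in tandem arrays. On chromosome 7, from 25802469 to 27133660, 9 Cyp symbols of the table sit together, of which Cyp2s1, Cyp2b10, Cyp2b19, Cyp2g1 and Cyp2f2 met the minimum. Of these 5, Cyp2f2 was the 1 that passed, and their log2 fold changes ran from -0.85 to 0.16. The 5 genes of the Cyp4f array on chromosome 17 lay between -0.21 and 0.08 and the 4 of the Cyp2j array on chromosome 4 between -0.19 and -0.03. Cyp1a1 (57687928 to 57703824) and Cyp11a1 (57998024 to 58027031) lie in the same region of chromosome 9. Symbols were placed together where no more than 1000000 bases separated them. Values in arrays are less certain where copies are alike, because reads that match several genes are divided by estimate. Counts that were not whole, the mark of such division, were found in 4 of the 38 genes, Cyp3a13, Cyp4f16, Cyp4f37 and Cyp4x1, and in none of the 3 that passed. The spans of Cyp4v3, Cyp4f18, Cyp7b1, Cyp11a1, Cyp17a1, Cyp39a1, Cyp2g1 and Cyp2b19, introns included, overlap predicted genes in RefSeq. Whether their exons overlap was not examined. Without strand information, reads from any shared exon could not be told apart.

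The electron donors did not pass either. Of 9 tested, 0 rose and 0 fell at the adjusted threshold with edgeR, and 0 had an unadjusted p under 0.05. Por was at 95.5 ± 7.70 CPM in ecko and 104 ± 6.27 CPM in controls (SD, n = 3 each), a log2 fold change of -0.12 (SE 0.07). Fdxr was lower in all ecko libraries, at 120, 140 and 144 counts against 159, 147 and 156, by -0.21 log2 units (SE 0.11, edgeR adjusted p = 0.393). Over all the pathway lists together, 1 of 86 genes tested rose and 0 fell, and 22 had an unadjusted edgeR p under 0.05. Of all genes tested, 0.686% rose, 1.08% fell and 15.4% had such an unadjusted p.

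The 31 Cyp symbols under the minimum included 21 with 5 or fewer counts over all libraries. Just above the minimum stood Cyp27b1, with 17, 16 and 16 counts in ecko and 15, 10 and 10 in control libraries. Just under it were Cyp8b1, a bile acid enzyme of the liver, with 16, 12 and 5 counts in ecko and 8, 8 and 9 in controls, and Cyp2b23, with 7, 4 and 6 against 6, 2 and 6. The liver enzymes Cyp1a2, Cyp2c50 and Cyp2d10 had at most 1 count in any library. Cyp2a4 had 4 counts in ecko 3 and 0 in the others.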

How the data were processed

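Per the labels' protocols, ear skin was snap-frozen, Trizol was used for extraction, and poly(A) RNA was captured, fragmented and copied from random primers. No strand-marking step is named. The table deposited by the authors holds expected counts (estimated counts) per gene and library, unscaled, per the file headers, and 10.5% of values are not whole. RSEM 1.3.1, HISAT2 2.2.1 and Bowtie2 2.4.5 are listed without roles, with the build GRCm38.p6, per the submitters' processing notes.

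Counts were rounded. Genes kept by filterByExpr (14866, with 3556 removed) were TMM-scaled and tested by genotype over all 6 libraries with the quasi-likelihood test of edgeR 4.0.16 (R 4.3.3), with Benjamini-Hochberg adjustment over all of them. The biological coefficient of variation was 8.80%. Standard errors are the fold change over the square root of F. The scripts were tested on simulated data. Exon length was the union of GENCODE exons on GRCm38, coordinates came from RefSeq (18370 of 18422 identifiers matched). Sex was read from Ddx3y, Uty, Kdm5d and Eif2s3y (at least 500 reads for male). No library was a duplicate of another.

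Alternatives were DESeq2 1.42.0, limma-voom (limma 3.58.1), upper-quartile or RLE scaling, other low-count filters, a term for sex, a replicate block, leaving out libraries singly and, chosen after seeing the data, male libraries only. The genes, lists and tests were chosen with earlier results of these data known. Named were genes that passed, in each role up to 4 with the smallest p and up to 3 with the highest level, and those without overlap past 0.5 log2 units. Others (Cyp1a1, Cyp17a1, Cyp2r1, the smaller array members and genes under the minimum) were named after their values were seen. Pathway and marker genes that did not pass, such as Lrat, Ahr, Lep and Tbxas1, were likewise named outside the rule.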

Additional observations from a re-analysis of the deposited data

How the results depend on the processing

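Cyp2e1 and Cyp2f2 kept their direction and passed in all 15 alternatives. Cyp1b1 kept its direction in all 15 and passed in 10. The number of Cyp genes called higher was 2 with DESeq2, where Cyp26b1 joined, and 0 to 2 when single libraries were left out. The number called lower was 2 to 3 with single libraries left out. Over all genes, 102 were called higher and 160 lower. With DESeq2, 195 were higher, and with an adjusted p under 0.1, 182 were higher and 269 lower. In the male libraries alone 91 were lower. Leaving out single libraries gave 22 to 165 higher and 34 to 242 lower genes. With no minimum count the family has 69 symbols.

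The replicate block called 63 genes higher and 129 lower and left the 3 Cyp calls in place. The labels do not say that the numbers pair animals. Deviations of same-numbered libraries correlated at 0.053, 0.048 and 0.172, the last between the 2 libraries read as female, and other pairs at -0.102 to 0.060. The male ecko 1 correlated best with the male control 2 (0.060), so number and sex cannot be told apart for the third pair.

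Small fold changes turned sign when single libraries were left out, with ranges of -0.03 to 0.34 for Cyp11a1, -0.67 to 0.23 for Cyp26a1 (0.16 in male libraries), -0.02 to 0.14 for Cyp27a1, -0.07 to 0.02 for Cyp2j6, -0.03 to 0.01 for Cyp39a1, -0.14 to 0.01 for Cyp4b1, -0.05 to 0.12 for Cyp4f39 and -0.24 to 0.02 for Cyp51. Cyp27b1 could not be fitted under the filter of 1 CPM in 3 libraries. The causes were not tested. At 10 to 75 counts, as for Cyp2e1, Cyp27b1 and Cyp2r1, counting error limits the precision.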

Other observations

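Some enzymes of the same superfamily carry other symbols. Ptgis, the prostacyclin synthase gene of vessels, had 884, 823 and 857 counts in ecko and 625, 946 and 755 in control libraries. Its groups overlapped, with a log2 fold change of 0.12 (SE 0.12, edgeR adjusted p = 0.708). Tbxas1, the thromboxane synthase gene of platelets and macrophages, had 64, 49 and 42 counts in ecko and 29, 37 and 33 in control libraries. All ecko values lay above the controls, with a log2 fold change of 0.63 (SE 0.22, edgeR adjusted p = 0.222).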
